A study of Mus musculus with 6 samples.

Results

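A set of 10 genes of the telomere machinery was followed in mouse embryonic fibroblasts (MEFs): Tert and Dkc1 of telomerase, the shelterin genes Terf1, Terf2, Terf2ip, Tinf2, Acd, Pot1a and Pot1b, and the helicase gene Rtel1. These 10 of the 46603 genes listed in each library were chosen by name, and the group was chosen for the near loss of Tert reads in KO cells, so the Tert values are a description and carry no test. All 10 passed the filter on low counts, Tert through its WT libraries. Telomerase adds telomere repeats to chromosome ends with a reverse transcriptase (TERT) that copies a template in its RNA subunit (Terc), held by dyskerin and its partners. Shelterin coats the repeats, keeps the end from being read as a DNA break, and brings telomerase to it. Mouse somatic cells are known to keep some telomerase activity, and TERT protein is usually the scarce component.

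The libraries came from β-actin knockout MEFs (KO, 3 libraries) and wild-type MEFs (WT, 3 libraries). Both lines were BALB/c, from 10.5 day old embryos, and both had spent 6 days under adipocyte differentiation, in medium that held ascorbic acid, IBMX, dexamethasone and insulin, so no group was left untreated. How many embryos or clones stand behind each line, and whether replicates were separate cultures, is not given in the sources used here. The genotype and the cell line therefore cannot be told apart, and p-values measure the spread between these libraries, which may be technical.

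Library totals ran from 26955708 to 38619711 counts, at which 3 counts correspond to 0.0816 to 0.113 CPM, the unit of level used below (a gene's reads relative to the TMM-scaled size of its library). Actb, the targeted gene, had WT counts of 60501, 60582 and 53894 and KO counts of 276, 1988 and 1850, so all 6 libraries matched their labels. KO replicate 1 stood apart: its chi-square per degree of freedom was 169 and 167 against the other KO libraries, which gave 26.2 between themselves, and WT pairs gave 16.9 to 31.5. Values without that library are given beside the results it moves most. Fibroblast markers were not alike in both lines. At an edgeR adjusted p below 0.05, 8 of 10 rose in KO and the other 2 missed the threshold. Of all tested genes, 13.8% rose. Summed levels of the markers were 2990 to 3780 CPM in WT and 7660 to 10600 CPM in KO. Of these markers, Thy1 had 0, 1 and 0 counts in WT and Col1a2 had 13, 6 and 9. The part of the marker difference between the lines in the results below was not tested.

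The sequences shown first are the 250 bases before the start of Tert, of Tinf2 and of Rtel1 (RefSeq, GRCm38.p6). The template end of Terc follows them (GENCODE, GRCm38). They are given for reference, and the part of their motifs in the results below was not tested. Capitals in the promoters mark the GC box GGGCGG, bound by Sp1, and the ETS core CCGGAA, each searched on both strands; the E-box CACGTG, the Myc and Max site, was searched too and reads the same on both strands. The Tert stretch lies at chr13:73626661-73626910 (plus strand) and holds 2 GC boxes, no ETS core and no E-box.
Tert: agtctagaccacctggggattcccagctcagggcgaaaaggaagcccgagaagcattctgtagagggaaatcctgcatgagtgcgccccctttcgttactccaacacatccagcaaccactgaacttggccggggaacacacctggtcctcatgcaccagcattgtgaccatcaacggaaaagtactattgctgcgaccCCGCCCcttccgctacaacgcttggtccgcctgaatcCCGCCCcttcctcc
Tinf2, at chr14:55681818-55682067 on the minus strand, holds 1 ETS core and neither of the other motifs.
Tinf2: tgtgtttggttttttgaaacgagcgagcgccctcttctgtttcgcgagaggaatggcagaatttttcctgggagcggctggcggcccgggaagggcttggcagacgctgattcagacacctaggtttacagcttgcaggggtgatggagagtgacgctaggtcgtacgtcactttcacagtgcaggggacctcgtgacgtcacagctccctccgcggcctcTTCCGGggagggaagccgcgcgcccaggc
Rtel1, at chr2:181319474-181319723 on the plus strand, holds 1 GC box and 1 ETS core.
Rtel1: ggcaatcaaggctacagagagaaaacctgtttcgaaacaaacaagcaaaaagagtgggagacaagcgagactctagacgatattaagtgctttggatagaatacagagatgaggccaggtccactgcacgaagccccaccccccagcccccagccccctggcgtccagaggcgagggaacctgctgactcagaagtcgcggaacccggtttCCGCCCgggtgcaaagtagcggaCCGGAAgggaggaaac
Of 32851 mouse promoter windows of this length, 32.7% held a GC box, 16.7% held 2 or more, 12.0% held an ETS core and 6.02% held an E-box. No motifs overlapped in the windows shown. Promoter entries were matched for 9 of the 10 genes, all but Terf1, and none of the 9 held an E-box in this window. Terc, at chr3:96414437-96414859 on the minus strand, is a transcript of 423 bases, and capitals mark the only CTAACCC in it (positions 29 to 35), the complement of the telomere repeat that telomerase copies.
Terc: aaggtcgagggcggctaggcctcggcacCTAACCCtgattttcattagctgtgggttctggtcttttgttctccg

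Tert, the catalytic reverse transcriptase, was read at a low level in WT and was almost absent from KO. The WT libraries held 217, 261 and 259 of its reads and the KO libraries 1, 0 and 0, or 6.82, 8.2 and 8.75 CPM against 0.0376, 0 and 0. The WT mean was 7.92 ± 0.993 CPM (SD, n = 3), and no KO library came near any WT library. Summed over the groups, 737 counts stood against 1, a 768-fold lower level in KO with an exact 95% interval of 137 to 30400 that covers counting error only. The single KO count lay in KO replicate 1, and without that library a floor of 3 counts over the group puts KO at least 186-fold lower. In bulk RNA, fewer cells that express a gene and less RNA per cell cannot be told apart. Tert shares no exon base with another annotated gene, and 0.242% of its 50-base transcript words occur in another gene's transcripts.

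The protein-coding genes whose log2 CPM followed Tert most closely over the 6 libraries (Euclidean distance of centred values, 13069 genes ranked) were Ddx43, Ttbk1, Cd34, Kcnk5 and Atp9a. Ddx43, an RNA helicase gene on chromosome 9, was nearest at a distance of 0.223, with WT counts of 192, 227 and 230 and KO counts of 1, 0 and 0. The next, Ttbk1, lay at 0.417 and Atp9a, the last of the 5, at 0.731. Only Ddx43 was also among the first 5 when genes were ranked by Pearson correlation. The other 4 had correlations of 0.997 to 0.999 with Tert and ranked 8 to 36. Their place among the first 5 thus depends on the measure.

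Markers of pluripotent, germ and blood cells left few reads in either line, while epithelial markers summed higher in KO. The summed level of 12 pluripotent and germ cell markers was 2.80 to 3.39 CPM in WT and 3.00 to 3.89 CPM in KO, with 10 of 12 at no more than 10 counts in any library and Sox2, Zfp42, Lin28a, Dazl and Tdgf1 at 0 in all. The 12 blood cell markers summed to 0.405 to 0.849 CPM in WT and 0.297 to 0.638 CPM in KO, with 11 of 12 at no more than 10 counts. The 8 epithelial markers summed to 5.25 to 10.4 CPM in WT and 30.4 to 50.9 CPM in KO, but did not move one way. All 3 tested passed the threshold, beside 28.3% of all tested genes. The keratin genes Krt18 and Krt19 rose, and Epcam, a surface adhesion protein of epithelia, fell. Epcam had WT counts of 34, 48 and 45 and none in KO, and Cdh1, not tested, had WT counts of 11, 7 and 11 and KO counts of 0, 4 and 2. Epcam, like Tert, thus had reads in all WT libraries and next to none in KO, and the part of epithelial markers in the Tert difference was not tested. Proliferation genes summed to 4990 to 5440 CPM in WT and 5260 to 5370 CPM in KO. Of 20 tested, 4 rose and 1 fell (25.0%, beside 28.3% of all tested genes). Without KO replicate 1, 9 passed the threshold (45.0%, beside 42.3% of all genes in that fit). The count ran from 1 to 4 when any other library was left out. Calls over all genes then ran from 2298 to 3806, beside 4255 with all libraries.

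**Figure D1:**
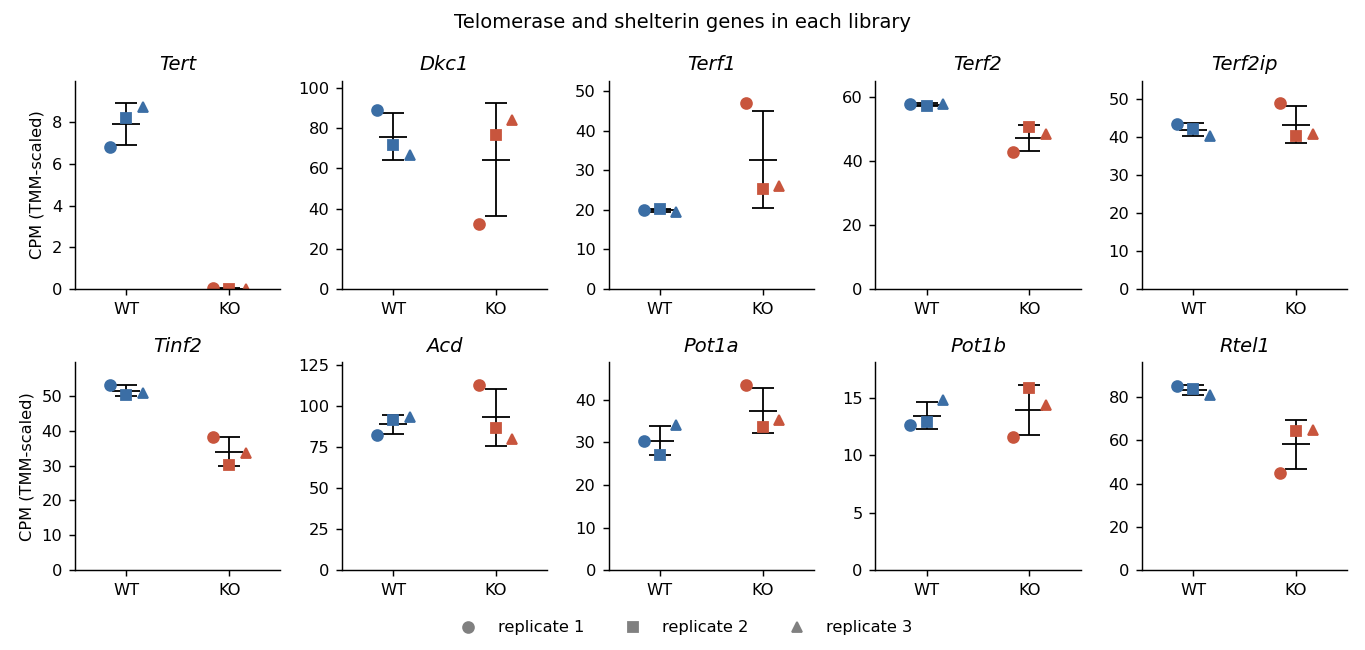
CPM (TMM-scaled, linear axes from 0) of the 10 genes in each WT and KO library, with marker shape for the replicate and the mean ± SD of 3 libraries in black. Tert lay between 6.82 and 8.75 in WT and at no more than 0.0376 in KO, while KO replicate 1 (circles) was the lowest library for Dkc1 and the highest for Terf1.

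Among the other members Tinf2 and Rtel1 were lower in KO, and the differences were far smaller than that of Tert. The edgeR quasi-likelihood F test was run for KO against WT over all 15009 tested genes, and a gene was called at a Benjamini-Hochberg adjusted p below 0.05. Of the 9 members other than Tert, 2 fell (Tinf2 and Rtel1), none rose and 7 were not called, beside 28.3% of all tested genes called (13.8% higher and 14.5% lower in KO). At an unadjusted p below 0.05 edgeR put 1 member higher (Terf1) and 3 lower, limma-voom called none higher after adjustment and DESeq2 called 1. The WT and KO values did not overlap for 4 of the 9, Terf1, Terf2, Tinf2 and Rtel1, beside 49.6% of all tested genes. Without KO replicate 1, 3 of 9 were called, 1 higher and 2 lower, beside 42.3% of 15453 genes. The median log2 fold change of the 9 was 0.05, and that of all tested genes 0.01. The balance of calls depends on the scaling: TMM gave 2074 higher and 2181 lower genes, whereas library totals gave 1351 and 3347 and shifted the median of all genes by -0.20.

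Dkc1, which encodes dyskerin, the protein that binds and stabilises telomerase RNA, varied more between KO libraries than between lines. It had 89.0, 71.5 and 66.7 CPM in WT and 32.2, 76.6 and 84.0 CPM in KO. KO replicate 1 was at 0.401 of the mean of the other KO libraries, which lay within the WT range. The log2 fold change was -0.24 with a standard error (SE) of 0.46 (edgeR adjusted p = 0.622), and 0.08 without KO replicate 1. Terc, the RNA subunit, had WT counts of 7, 7 and 6 and KO counts of 0, 20 and 16 and did not pass the filter. Without KO replicate 1, the library with none, it passed and was called higher, with a log2 fold change of 1.24 (edgeR adjusted p = 0.032), whereas without 1 WT library its adjusted p was 0.68 to 0.694. As a transcript without a poly(A) tail it is poorly caught by poly(A) selection, and this kit selects poly(A) RNA, so its counts do not measure the telomerase RNA pool.

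TRF1 and TRF2, encoded by Terf1 and Terf2, bind the double-stranded repeats, and their transcripts differed in opposite directions without passing the threshold. Terf1 stood at 20.1, 20.2 and 19.4 CPM in WT and 47.0, 25.2 and 26.0 CPM in KO. Every KO library was above every WT library, with KO replicate 1 far above the rest. The log2 fold change was 0.72 (SE 0.29) at an adjusted p of 0.0665, not past the threshold; it was 0.36 at an adjusted p of 0.0159 without KO replicate 1, and DESeq2 gave 0.73 at 0.0283. Terf2 stood at 57.9, 57.2 and 57.8 CPM in WT and 42.7, 50.6 and 48.4 CPM in KO. Every KO library was below every WT library, with a log2 fold change of -0.29 (SE 0.07, adjusted p = 0.0911), which was not past the threshold; with library totals as the scaling it was -0.49 (adjusted p = 0.0254), or -0.28 relative to the shift of all genes. The ratio of Terf1 to Terf2 in CPM per kb of exon was 0.346, 0.353 and 0.336 in WT and 1.10, 0.497 and 0.537 in KO, so the KO libraries all lay above the WT libraries.

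TIN2 (Tinf2) and TPP1 (Acd) bridge the proteins on double-stranded and single-stranded repeats, TPP1 also recruits telomerase, and RAP1 (Terf2ip) rides on TRF2. Tinf2 fell: its WT counts were 1688, 1595 and 1503 and its KO counts 1018, 1015 and 1235, or 51.3 ± 1.54 CPM against 34.0 ± 4.08 CPM (mean ± SD, n = 3 each). All KO libraries were below all WT libraries. The log2 fold change was -0.60 (SE 0.10, edgeR adjusted p = 0.0113), it ran from -0.69 to -0.51 with each library left out in turn, and it was called in 14 of 14 alternative analyses. Acd, at 89.0 ± 5.79 CPM in WT and 93.3 ± 17.8 CPM in KO, had a log2 fold change of 0.07 (SE 0.16, adjusted p = 0.769), and its WT and KO ranges overlapped. Terf2ip, at 41.9 ± 1.64 CPM and 43.3 ± 4.83 CPM, gave 0.05 (SE 0.10, adjusted p = 0.805), again with overlap. The ratio of Tinf2 to Acd per kb was 0.472, 0.403 and 0.399 in WT and 0.247, 0.255 and 0.310 in KO.

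Exons of Tinf2 and Acd overlap genes on the other strand, and the library kit does not mark strand. Of 4938 exon bases of Tinf2, 1540 (31.2%) also belong to Gmpr2, a GMP reductase gene, which had a log2 fold change of -0.40 (SE 0.10, adjusted p = 0.0611). Of 3625 exon bases of Acd, 1208 (33.3%) also belong to Carmil2, whose level was 1.36 ± 0.174 CPM in WT and 1.10 ± 0.439 CPM in KO. Reads from the shared stretches cannot be assigned to either gene, so the levels of Tinf2 and Acd are uncertain to that extent. Among the other members, shared exon bases came to 1.09% for Dkc1, 2.18% for Terf2ip and 0% for the remaining 6.

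POT1a and POT1b, the mouse pair that binds the single-stranded overhang (POT1a blocks ATR signalling there, POT1b limits trimming of the end), were not called. Pot1a had a level of 30.4 ± 3.54 CPM in WT and 37.4 ± 5.36 CPM in KO, from WT counts of 965, 858 and 1008 and KO counts of 1159, 1129 and 1297, with a log2 fold change of 0.30 (SE 0.15, adjusted p = 0.184). The highest WT level was above the lowest KO level. Pot1b stood at 12.6, 12.9 and 14.8 CPM in WT and 11.6, 15.8 and 14.4 CPM in KO, with a log2 fold change of 0.06 (SE 0.15, adjusted p = 0.836) and full overlap. The ratio of Pot1a to Pot1b per kb was 1.27 to 1.47 in WT and 2.27, 1.29 and 1.49 in KO, so KO replicate 1 lay far above the WT range, KO replicate 3 just above it and KO replicate 2 within it. Reads of 50 bases would tell the paralogs apart, since 0.186% of Pot1a and 1.36% of Pot1b words of that length occur in any other gene.

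Rtel1 encodes the helicase that unwinds telomere loops and structures during replication, and it fell. It stood at 85.3, 83.9 and 80.9 CPM in WT and 45.0, 64.5 and 65.0 CPM in KO. Every KO library was below every WT library, and KO replicate 1 was the lowest. The log2 fold change was -0.52 (SE 0.18, edgeR adjusted p = 0.0427) and -0.36 (adjusted p = 0.00677) without KO replicate 1. The call was lost when any of the 5 other libraries was left out, with adjusted p from 0.0513 without KO replicate 2 and 0.0545 without KO replicate 3 to 0.0983, 0.123 and 0.13 without WT replicate 3, 1 and 2.

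**Figure D2:**
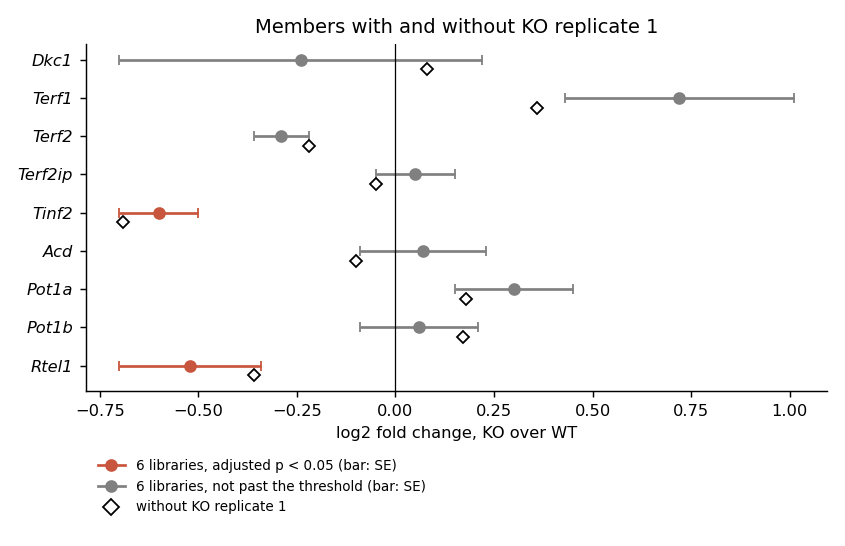
Log2 fold change (KO over WT) of the 9 members other than Tert from all 6 libraries (circles, bars are the SE) and without KO replicate 1 (diamonds). Tinf2 and Rtel1 were called lower; Dkc1, Terf2ip and Acd changed sign without KO replicate 1, and Terf2ip, Acd and Pot1b became negative with library totals as the scaling.

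Per kb of exon the members stood in a clear order in WT. Acd led at 24.6 ± 1.60 CPM per kb, followed by Dkc1 (18.4 ± 2.86), Rtel1 (12.6 ± 0.340), Terf2 (12.5 ± 0.0888), Tinf2 (10.4 ± 0.312), Terf2ip (8.46 ± 0.332), Terf1 (4.32 ± 0.0882), Pot1a (3.51 ± 0.408), Pot1b (2.55 ± 0.230) and Tert (1.38 ± 0.173). Rtel1 and Terf2 overlapped; every other neighbour in that order was separated in all 3 libraries. In KO, Acd again led (25.7 ± 4.92) and Pot1a, Pot1b and Tert again came last, but the ranges of neighbours from Dkc1 to Tinf2 overlapped throughout, and Tinf2 stood last of these 6 at 6.88 ± 0.827 CPM per kb. Where length was taken from the longest transcript, Pot1a came before Terf1 in WT, and Acd overlapped Dkc1. Terf2 (21.6 CPM per kb) then came before Rtel1 (18.7) in WT, without overlap.

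The summed shelterin level per kb averaged 66.3 ± 1.31 in WT and 65.7 ± 8.61 in KO, while its make-up differed. The 7 genes together gave 65.1, 66.2 and 67.7 CPM per kb in WT and 75.6, 61.5 and 60.0 in KO. KO replicate 1 lay above the WT range and the other KO libraries below it. Tinf2 made up 16.5%, 15.3% and 15.2% of that sum in WT and 10.2%, 9.92% and 11.3% in KO. Terf1 made up 6.24% to 6.69% in WT and 13.5%, 8.90% and 9.42% in KO. Terf2 made up 18.6% to 19.4% in WT and 12.3% to 17.9% in KO, and Pot1a 4.70% to 5.80% and 6.28% to 6.79%, both without overlap. Acd held 34.9% to 38.1% in WT and 36.6% to 41.4% in KO, and Pot1b 3.67% to 4.16% and 2.92% to 4.88%. Terf2ip held 12.0% to 13.5% and 13.0% to 13.7%. The ranges of Acd, Pot1b and Terf2ip overlapped. Shares of a sum move against each other, so they describe make-up and not each gene's change.

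**Figure D3:**
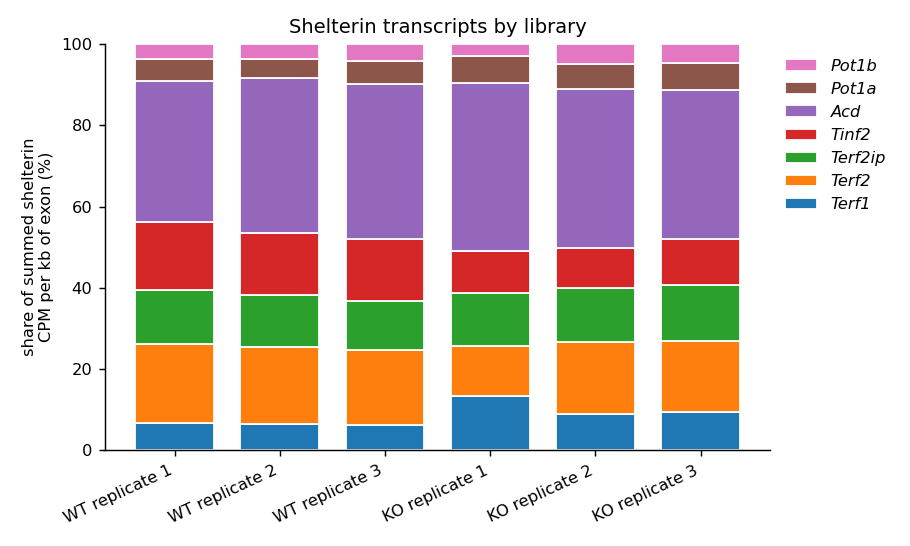
Share of the summed shelterin level (CPM per kb of exon) held by each of the 7 shelterin genes in every library. The Tinf2 band was 15.2% to 16.5% in WT and 9.92% to 11.3% in KO, and the Terf1 band was widest, at 13.5%, in KO replicate 1.

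Other telomere genes were described in 4 lists, for telomerase assembly and turnover, replication of the telomere end, repair proteins and shelterin partners, and telomere chromatin. Of 85 listed genes 80 were tested: 5 rose, 14 fell and the other 61 missed the threshold (23.8% called, beside 28.3% of all tested genes), with a median log2 fold change of -0.11 beside 0.01 for all genes. Without KO replicate 1, 11 rose and 22 fell of 81 (40.7%, beside 42.3% of all genes in that fit). The count was 9 when WT replicate 2 or 3, or else KO replicate 3, was left out. Over all genes the calls in those fits were 2298, 2825 and 3194, beside 4255 with all libraries. They were 2643 without WT replicate 1 and 3806 without KO replicate 2. Leave-out counts of the single lists below come from these same fits.

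Among 21 tested genes of telomerase assembly and turnover, 1 rose and 2 fell (14.3%, beside 28.3% of all tested genes). The count was 6 of 22 without KO replicate 1 (27.3%, beside 42.3%) and 1 without any WT library or KO replicate 3. Pinx1, which encodes a TERT-binding inhibitor of telomerase, fell from 15.2, 12.6 and 13.2 CPM in WT to 6.38, 6.61 and 6.80 CPM in KO, a log2 fold change of -1.05 (SE 0.09, adjusted p = 0.00336). Nat10, an RNA acetyltransferase, fell by 0.46 on the log2 scale (adjusted p = 0.0201, called in 9 of 14 alternatives), and Nvl, an ATPase reported to bind TERT, rose by 0.36 (adjusted p = 0.0303, called in 5 of 14 alternatives). The core partners of dyskerin, Nhp2, Nop10 and Gar1, had log2 fold changes of -0.17, -0.19 and -0.24 with adjusted p from 0.432 to 0.63, and Wrap53, which carries the RNA to Cajal bodies, had -0.40 (adjusted p = 0.0949).

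Of 20 tested genes that replicate the telomere end, 2 rose and 6 fell, a larger share than the 28.3% of all tested genes, and 3 rose and 8 fell without KO replicate 1 (55.0%, beside 42.3%). The CST complex, which fills in the C-rich strand and limits telomerase, moved unequally: Ctc1 fell from 118, 129 and 125 CPM to 61.4, 65.1 and 65.8 CPM (log2 fold change -0.95, SE 0.05, adjusted p = 0.00062), Ten1 rose by 0.79 (SE 0.20, adjusted p = 0.0199, called in 8 of 14 alternatives), and Stn1 gave -0.38 (SE 0.33, adjusted p = 0.293). Pola2 and Prim1, subunits of the DNA polymerase alpha-primase that CST engages, both fell by 0.68 on the log2 scale (adjusted p = 0.00649 and 0.00744). Pif1, a helicase that can strip telomerase from ends (shown in yeast), rose from 4.97, 5.25 and 5.00 CPM to 18.2, 12.6 and 14.3 CPM (log2 fold change 1.57, SE 0.16, adjusted p = 0.00131). Recql4, a DNA helicase, fell by 0.61 (adjusted p = 0.00586).

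Among 21 tested repair proteins and shelterin partners, 1 rose and 5 fell (28.6%, beside 28.3% of all tested genes). These 6 calls became 8 without KO replicate 1 (38.1%, beside 42.3%), 3 without KO replicate 2, and 1 when WT replicate 2 or 3, or else KO replicate 3, was left out. Ercc4, a nuclease subunit that can cut unprotected overhangs, fell from 10.7, 13.1 and 9.56 CPM to 2.37, 6.61 and 5.22 CPM (log2 fold change -1.23, SE 0.46, adjusted p = 0.0389), with -0.91 without KO replicate 1 and a call in 10 of 14 alternatives. Slx4, a scaffold for nucleases, and Rad50, of the complex that senses DNA breaks, both fell by 0.49 (adjusted p = 0.0268 and 0.0395, called in 9 and 10 of 14 alternatives). Mad2l2, which restrains end resection, rose by 0.35 (adjusted p = 0.0453, called in 5 of 14 alternatives). Of 18 tested chromatin genes, 1 rose (Cbx3, 0.38, adjusted p = 0.0377) and 1 fell (Dot1l, -0.40, adjusted p = 0.0333), 11.1% in all beside 28.3%. Cbx3 was called in 5 and Dot1l in 8 of 14 alternatives. The list held 8 calls without KO replicate 1 (44.4%, beside 42.3%) and no more than 1 without any other library.

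Transcription factors known to act at TERT promoters, mostly from work on human cells, were listed next, 30 in all, of which 27 were tested. In that list 6 rose, 6 fell and 15 missed the threshold (44.4%, beside 28.3% of all tested genes), with a median log2 fold change of 0.15, or -0.09 without KO replicate 1, where 14 were called (51.9%, beside 42.3%). The count was 5 without WT replicate 1 or 2, 7 without WT replicate 3 and 8 without KO replicate 3. Myc, a TERT activator, stood at 55.0, 46.4 and 49.7 CPM in WT and 62.5, 59.7 and 70.5 CPM in KO, a log2 fold change of 0.35 (SE 0.10, adjusted p = 0.0653), and its partner Max rose by 0.47 (adjusted p = 0.0342, called in 7 of 14 alternatives). Hif1a rose from 193, 147 and 192 CPM to 629, 343 and 522 CPM (1.49, SE 0.29, adjusted p = 0.00339). Wt1, reported as a repressor of human TERT, rose from 0.440, 0.283 and 1.32 CPM to 14.2, 4.98 and 13.2 CPM (3.99, SE 0.77, adjusted p = 0.00366). E2f1 fell by 0.74 on the log2 scale (adjusted p = 0.0102) and Rela by 0.74 (adjusted p = 0.00157). Trp53, whose protein can repress TERT, fell by 1.00 (SE 0.33, adjusted p = 0.022), or by 0.74 without KO replicate 1, and Zeb1, a repressor of epithelial genes, rose by 0.75 (adjusted p = 0.0148); each was called in 11 of 14 alternatives. Sp1, known to bind GC boxes, had 211, 227 and 243 CPM in WT and 354, 203 and 203 CPM in KO (0.16, adjusted p = 0.637).

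**Figure D4:**
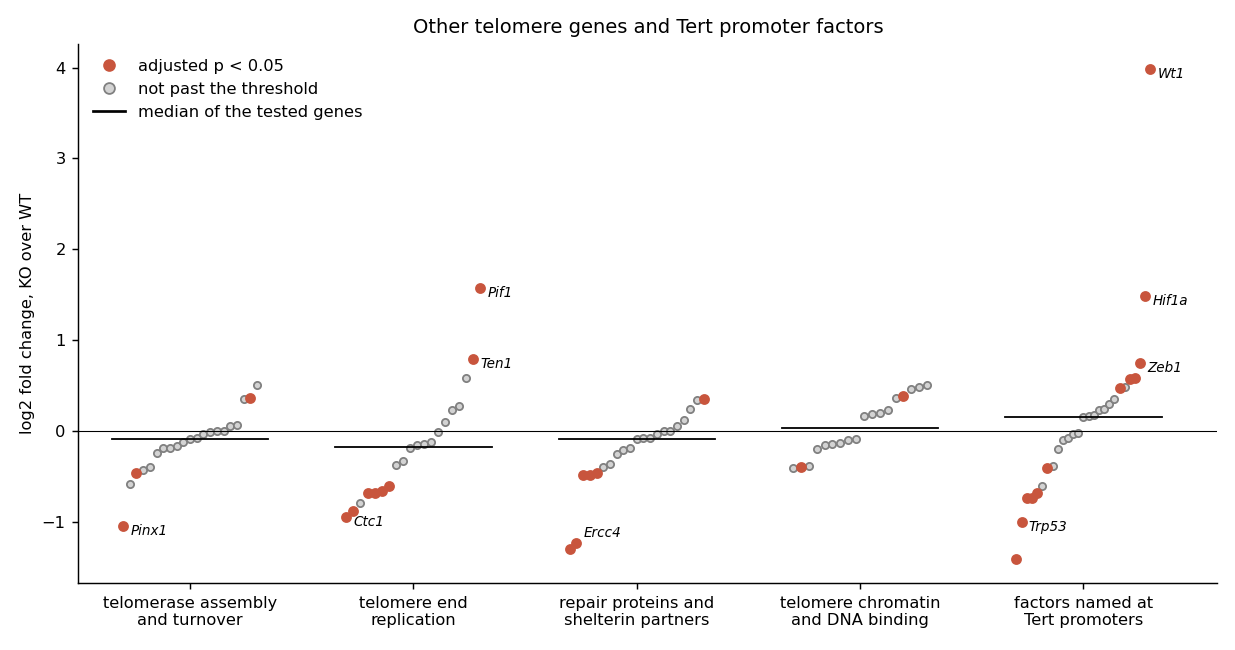
Log2 fold change (KO over WT) of every tested gene in the 4 telomere lists and the promoter factor list, ordered by value within each list, with red for adjusted p below 0.05 and a line at the median. The telomere lists hold 5 called genes above 0 and 14 below; named points include Pif1 (1.57), Ctc1 (-0.95), Pinx1 (-1.05) and Wt1 (3.99).

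The genes around Tert were examined at chr13:73626911-73649843 (GRCm38, plus strand). Within 1 Mb of the gene body 36 genes were listed and 21 tested. Of these, 7 fell, none rose and 14 missed the threshold, with a median log2 fold change of -0.47. All calls were lower (33.3%), beside 14.5% of all tested genes called lower and 28.3% called in either direction. No gene of the 21 was higher at an unadjusted p below 0.05 by edgeR, DESeq2 or limma-voom, and 12 were lower by edgeR. No share of all genes is given for that unadjusted threshold. After adjustment DESeq2 called 9 lower and limma-voom 8. Over all genes they called 2591 and 2283 lower, and edgeR called 2181. Without KO replicate 1, 10 of 22 were called, all lower, beside 42.3% of all genes in that fit (3462 lower). Without WT replicate 2 there were 4, all lower, beside 1295 of all genes called lower. With no filter on low counts, 1 of 32 was called higher and 8 lower, beside 2200 and 2381 of all genes. Clptm1l, the nearest called gene at 6.31 kb on the 5′ side, stood at 127 ± 12.2 CPM in WT and 85.5 ± 11.4 CPM in KO (-0.57, SE 0.14, adjusted p = 0.0183, called in 11 of 14 alternatives). Lpcat1, at 110 kb on that side, gave -0.15 (adjusted p = 0.578), or 0.04 without KO replicate 1, and Slc12a7, at 83.3 kb on the 3′ side, gave -0.47 (adjusted p = 0.0509), or -0.60 (0.00528) without it. None of these 3 was near absent in KO as Tert was.

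Larger differences lay farther off. Nkd2, a Wnt pathway gene at 169 kb on the 3′ side, had -2.14 (SE 0.45, adjusted p = 0.00483), and -2.64 without KO replicate 1. The pair near the edge of the window, Irx2, a homeobox gene, and the neighbouring Gm20554, were close to absent in KO: Irx2 had WT counts of 339, 433 and 357 and KO counts of 0, 7 and 1, and Gm20554 had 62 counts summed over WT and 1 over KO, 64.6-fold lower (exact 95% interval 11.2 to 2590). Of the tested genes between them and Tert, Ndufs6, Mrpl36 and Lpcat1 had between 289 and 2124 counts in every KO library. Clptm1l, the other, had KO counts of 1942, 2992 and 3492. Trip13, Exoc3 and Erap1 fell by 0.59, 0.48 and 1.58 on the log2 scale (adjusted p = 0.0165, 0.00887 and 0.0127), with -1.25 for Erap1 without KO replicate 1. The other 10 tested genes, Brd9, Tppp, Cep72, Ahrr, Pdcd6, Sdha, Ccdc127, Zfp72, Ftl1-ps1 and Zfp825, had log2 fold changes from -0.64 to 0.18 and adjusted p from 0.0899 to 0.917.

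**Figure D5:**
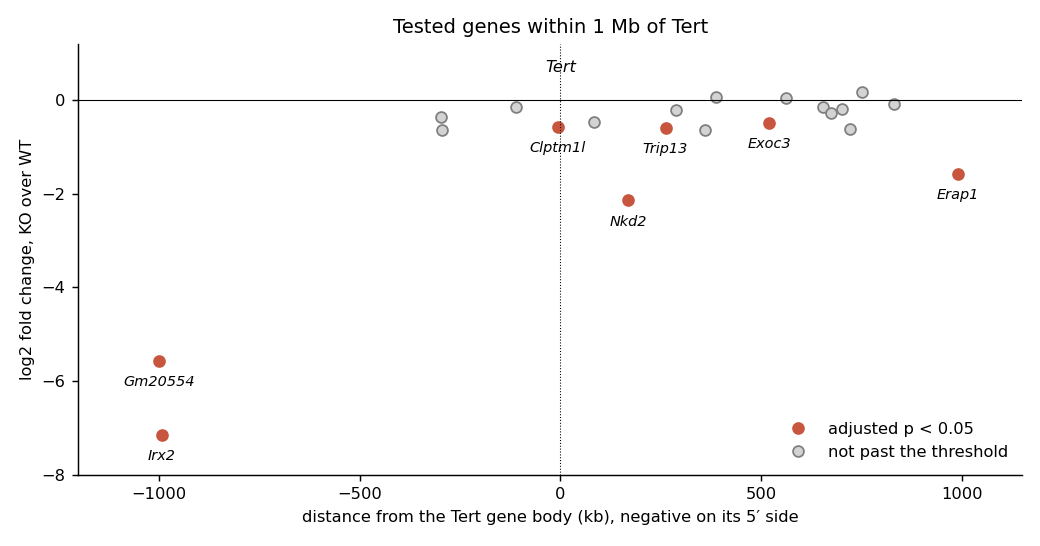
Log2 fold change (KO over WT) of the 21 tested genes within 1 Mb of Tert against their distance from its gene body in kb, negative on the 5′ side, with red for adjusted p below 0.05. All 7 called genes were lower in KO, from -0.48 for Exoc3 to -7.14 for Irx2.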

How the data were processed

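Total RNA (TriZol LS, RNeasy) was made into TruSeq v2 libraries, per the labels' protocols. The authors deposited raw counts of reads for each Ensembl gene, 1 library a file; TopHat2 2.1.0, HTSeq, DESeq2 and GRCm38.p4 are named in the submitters' processing notes. The annotation release and strand setting are not given there. Of 46603 gene identifiers, 46091 matched a GENCODE annotation of GRCm38, which gave symbols, positions and exon lengths.

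Counts were analysed in R 4.3.3 with edgeR 4.0.16 (filterByExpr by group, TMM, quasi-likelihood F test, two-sided, Benjamini-Hochberg over all tested genes). Log2 fold changes are KO over WT, and their SE comes from log2 CPM (prior count 2, 3 libraries a group). DESeq2 1.42.0, limma 3.58.1 (voom), other scalings, filters, a replicate block and each library left out were alternatives. Members and lists were chosen with earlier results of these data known. The text names all members, from each list up to 4 called genes with the smallest p per direction and every called gene at or beyond 1 on the log2 scale, the tested neighbours within 1 Mb, the 5 patterns nearest Tert, Actb and Terc. Uncalled genes named from a list, marker genes, Gmpr2 and Carmil2 were chosen after their values were seen. Some results that the naming rule covers are not reported here.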

Additional observations from a re-analysis of the deposited data

How the results depend on the processing

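Over 14 alternatives, 755 fold changes were compared for 54 named genes. Of these, 649 kept their side of the threshold, 83 lost the call, 23 gained it and none reversed with a call. Some uncalled genes among the 649 changed sign, such as Dkc1 (-0.24, and 0.08 without KO replicate 1). All genes called ranged from 2298 to 6537 with 1 library left out. Called members other than Tert ranged from 1 to 3, other telomere genes from 9 to 33, promoter factors from 5 to 14, and genes within 1 Mb of Tert from 4 to 10. Library totals called 14 of 21 tested genes within 1 Mb of Tert, all lower. Under that scaling 3347 of all 15009 tested genes were called lower and 1351 higher. Within 0.25 Mb of Tert, 2 of 4 tested genes (50.0%) were called in the main analysis, both lower. Of all tested genes, 14.5% were called lower and 28.3% in either direction. The cause of these differences was not tested.

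The labels do not say whether equal replicate numbers mark a shared culture. The correlation of deviations between same-numbered WT and KO libraries was -0.101, 0.046 and -0.148. The highest value was that of KO replicate 3 with WT replicate 1 (0.168). With 3 libraries a group, these values cannot exclude pairing. With a replicate block, 3045 genes, 1 member and 11 other telomere genes were called. The count ratio of Tert has no test, so it was recomputed for scalings and left-out libraries only, and it has no finite value without KO replicate 1. Depth limits Terc, at 0 to 20 counts, and the size of the Tert difference, which rests on 1 KO count.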
